A study of Bos taurus with 6 samples.

Results

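Succinate dehydrogenase, complex II of the respiratory chain, is built from the products of SDHA, SDHB, SDHC and SDHD. The rows of the deposited expression table whose gene name was one of these symbols were taken, which gave 4 of the 17663 genes in the table, 1 row for each subunit. All 4 passed the filter on low counts.

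Complex II sits in the inner mitochondrial membrane and belongs both to the citrate cycle and to the respiratory chain. It oxidizes succinate to fumarate and hands the electrons to ubiquinone. SDHA carries the FAD cofactor and the succinate site, SDHB carries the iron-sulfur clusters, and SDHC and SDHD anchor the enzyme in the membrane, where they bind heme and ubiquinone. Unlike complexes I, III, IV and the ATP synthase, it has no subunit encoded in mitochondrial DNA.

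RNA was sequenced from bovine fetal fibroblasts (bEFs) of 3 fat-1 transgenic (FT) fetuses and 3 wild-type Luxi (WT) fetuses, all at 50 to 60 days of pregnancy, to learn how the transgene bears on energy metabolism. The fat-1 gene encodes a desaturase that turns n-6 into n-3 polyunsaturated fatty acids, and the promoter that drove it is not given in the sources used here. Each primary culture came from body tissue of a single fetus, without organs, bones, head or limbs, with 1 poly(A) library per fetus (FT_1 to FT_3, WT_1 to WT_3; n = 3 per group). Total counts were 63366834, 48167642 and 54204446 in FT_1, FT_2 and FT_3, and 69777641, 51310741 and 54271927 in WT_1, WT_2 and WT_3. The 4 genes had between 2779 and 33841 counts in a library, so counting error was 0.544% to 1.9%.

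FT_1 stood apart from the other FT libraries. Biological variation (BCV, how far a typical gene differs between libraries once counting error is set aside) was 56.9% between FT_1 and FT_2 and 57.6% between FT_1 and FT_3, against 8.06% between FT_2 and FT_3 and 9.42% to 12.6% between WT libraries. Fold changes of the subunits and counts of the gene lists are therefore also given without FT_1. In that setting the FT arm has 2 libraries.

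The fibroblast label was checked against 10 defining markers, and each of them was at an FPKM of 22.8 or more in all 6 libraries. FPKM is the number of fragments scaled by transcript length and library total. Vimentin (VIM), the most abundant on average, had 1244, 3850 and 4171 FPKM in FT_1, FT_2 and FT_3 and 7891, 8178 and 7312 FPKM in the WT libraries. It was lowest in FT_1 and lower in each FT library than in each WT library. Summed over the 10 genes, FPKM was 6828, 17050 and 16780 in the FT libraries and 17820, 17270 and 17360 in the WT libraries, so that FT_1 held the smallest sum. With edgeR, 1 of the 10 (PDGFRA) was called higher in FT cells and none lower, where 1 was lower at an unadjusted p under 0.05, 1 with DESeq2 and 1 with limma. Without FT_1, 5 were called higher and 1, VIM, lower (-0.79, adjusted p = 7.67e-06). Of all genes tested, edgeR called 18.9% lower and 20.0% higher, and without FT_1 4335 and 4208 of 13765. DESeq2 called 3061 of 13237 genes lower and 3281 higher, and limma 3573 of 12247 lower and 1837 higher.

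Markers of other cell types also moved with the groups or with FT_1. Their counts stand against 18.9% of all genes called lower and 20.0% higher, and without FT_1 against 4335 and 4208 of 13765. With RPLP0 scaling 567 of 13482 genes were called lower and 2346 higher, and with the replicate block 1735 and 1828. Of 7 smooth muscle genes 6 were called higher in FT cells, and 7 without FT_1. Their summed FPKM was 2499, 3768 and 3631 in the FT libraries and 1103, 1083 and 1208 in the WT libraries. ACTA2 was the most abundant on average and made up most of the FT sums. Of 8 proliferation genes 7 were called lower in FT cells, 8 without FT_1 and 3 with RPLP0 scaling. Their sums were 71.9, 116.8 and 114.5 against 330.3, 390.4 and 316.0, with RRM2 the most abundant on average, so dividing-cell transcripts were lower in every FT library and lowest in FT_1. Epithelial genes were a feature of FT_1 in particular. The sum of 6 was 310.0 there, 11.04 and 10.83 in FT_2 and FT_3 and 10.1, 7.83 and 13.9 in the WT libraries. KRT5, the most abundant on average, had 171.5, 2.57 and 1.63 FPKM in the FT libraries and was listed at 0 in every WT library, as were KRT8 and KRT18. Of the 4 epithelial genes tested, edgeR called 0, where 3 were higher at an unadjusted p under 0.05, DESeq2 called 0 and limma 0. Without FT_1, 3 were called higher, with RPLP0 scaling 2 and with the replicate block 3. The 4 mesothelial genes analysed summed to 208.5, 45.0 and 46.3 FPKM in the FT libraries and 2.32, 3.51 and 3.34 in the WT libraries, nearly all of it MSLN, which was called higher with or without FT_1. The 6 adipocyte genes summed to 4.98, 14.3 and 15.6 in the FT libraries and 154.0, 139.9 and 156.5 in the WT libraries, with 2 of 5 tested called lower (3 without FT_1). FABP4 made up most of the WT sums but not of the FT sums. The part of any of these in the values of complex II was not tested. In bulk RNA, fewer cells of a type and less RNA per cell cannot be told apart.

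The comparison of FT with WT cells asked whether the subunits of complex II differed in transcript level. SDHA, SDHC and SDHD were lower in FT cells at a Benjamini-Hochberg adjusted p under 0.05, over 13482 genes, in edgeR's quasi-likelihood test on the counts, and SDHB was not called. That is 3 of the 4 members called lower, in a comparison where 38.9% of all genes tested were called, 18.9% lower and 20.0% higher. Without FT_1 the same 3 genes were called, in a fit that called 8543 of 13765 genes, 4335 of them lower. Counts of the lists without FT_1 stand against that larger background. The threshold of the study's methods, an unadjusted p under 0.05 with a log2 fold change under -1, was met by SDHD alone with TMM scaling, and by 8.83% of all genes in the lower direction. For all 4 members each FT library lay under each WT library, as was the case for 29.4% of all genes. The median log2 fold change was -0.90 over the 4 members (-0.73 without FT_1) and 0.03 over all genes tested.

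SDHA (ENSBTAG00000046019) encodes the flavoprotein subunit that binds succinate. Its FPKM was 64.2, 97.3 and 99.2 in FT_1, FT_2 and FT_3 and 190.9, 193.5 and 192.9 in WT_1, WT_2 and WT_3. The WT libraries lay close together, all FT libraries lay well under them, and FT_1 was the lowest. Mean FPKM was 86.9 ± 19.7 (SD, n = 3) in the FT and 192.5 ± 1.37 in the WT group. On the counts scaled by TMM, edgeR's scaling factors, the FT mean was 0.505 of the WT mean. The log2 fold change was -0.98 (SE 0.189, adjusted p = 0.00973), which missed the fold threshold of the study's methods narrowly. It passed that threshold with scaling by library totals (-1.14) and with limma on FPKM (-1.17). Without FT_1 it was -0.80 (adjusted p = 1.11e-06).

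SDHB (ENSBTAG00000008314), the iron-sulfur subunit, passes electrons from the FAD towards ubiquinone. Its FPKM was 66.2, 93.5 and 93.1 in FT_1, FT_2 and FT_3 and 106.9, 115.2 and 105.8 in WT_1, WT_2 and WT_3. FT_1 was again the lowest, and FT_2 and FT_3 lay only a little under the WT libraries. On the TMM-scaled counts (CPM) the gap nearly closed, with 133.8 in FT_3, the highest FT library, and 134.4 in WT_3, the lowest WT library. Mean FPKM was 84.3 ± 15.6 (SD, n = 3) in the FT and 109.3 ± 5.17 in the WT group. The log2 fold change was -0.21 (SE 0.158, adjusted p = 0.324), and without FT_1 it was -0.06 (SE 0.065, adjusted p = 0.464). SDHB was not called in edgeR, DESeq2 or limma, nor with any library left out, and its direction turned when libraries were scaled to RPLP0 (0.15).

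SDHC (ENSBTAG00000015853) encodes the larger membrane anchor, which shares the heme and the ubiquinone site with SDHD. Its FPKM was 56.9, 80.6 and 80.7 in FT_1, FT_2 and FT_3 and 137.8, 144.9 and 145.2 in WT_1, WT_2 and WT_3. FT_2 and FT_3 were nearly equal, FT_1 was lower, and no FT library reached the WT libraries. Mean FPKM was 72.7 ± 13.7 (SD, n = 3) in the FT and 142.6 ± 4.17 in the WT group. The log2 fold change was -0.81 (SE 0.159, adjusted p = 0.0106), or -0.65 without FT_1 (adjusted p = 6.68e-06).

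SDHD (ENSBTAG00000016266), the other anchor, had an FPKM of 40.6, 42.4 and 42.4 in FT_1, FT_2 and FT_3 and of 101.9, 110.0 and 93.8 in WT_1, WT_2 and WT_3. All 3 FT libraries were close, with FT_1 slightly the lowest, and lay far under the WT libraries. Mean FPKM was 41.8 ± 1.02 (SD, n = 3) in the FT and 101.9 ± 8.13 in the WT group. It had the lowest log2 fold change of the 4 genes, -1.13 (SE 0.086, adjusted p = 7.91e-04), and changed little without FT_1 (-1.10, adjusted p = 7.84e-07). With the length trend removed (-0.99) or RPLP0 scaling (-0.81) it fell short of the fold threshold of the study's methods. Of the genes tested, 9.69% had a lower log2 fold change than SDHD, against 11.7% for SDHA, 15.3% for SDHC and 36.8% for SDHB.

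**Figure D1:**
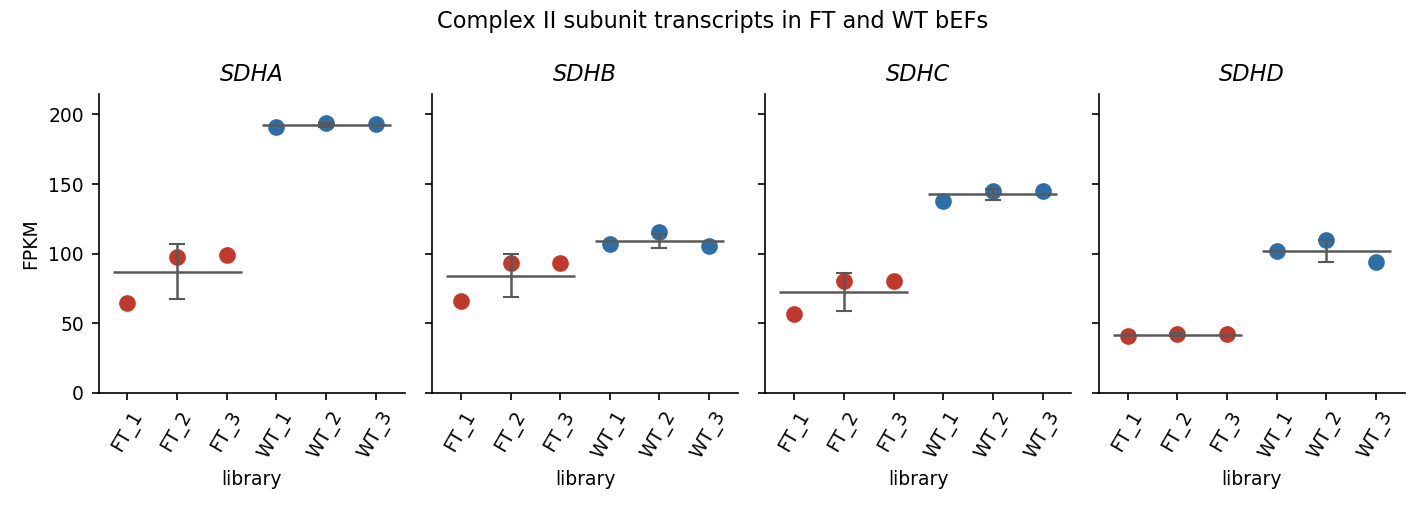
FPKM of SDHA, SDHB, SDHC and SDHD (y axis) in each of the 6 libraries (x axis; red FT, blue WT), with the group mean as a line and ± SD as the bar (n = 3). FT points lie under WT points in each panel, by the least in SDHB, and FT_1 lies under FT_2 and FT_3, by little in SDHD.

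FT_1 did not lower the 4 genes alike. Its FPKM was 0.654 of the mean of FT_2 and FT_3 for SDHA, 0.71 for SDHB and 0.706 for SDHC, but 0.958 for SDHD. The median of this ratio was 1.02 over 11254 tested genes whose FPKM averaged 1 or more, and 14.3%, 17.5%, 17.3% and 41.9% of them had a lower ratio than SDHA, SDHB, SDHC and SDHD. SDHA, SDHB and SDHC thus shared the dip in FT_1 and SDHD did not.

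The order of the levels differed between the groups. In all 3 WT libraries SDHA was highest, followed by SDHC, SDHB and SDHD on the FPKM scale, which is per length. SDHB was above SDHD by little in each WT library, whereas SDHA and SDHC each stood clear of the rest. In FT_2 and FT_3 the order was SDHA, SDHB, SDHC and SDHD, and in FT_1 SDHB came before SDHA. Across FT libraries the ranges of SDHA, SDHB and SDHC overlapped, and SDHD lay under all of them. Summed FPKM over the 4 genes was 228.0, 313.8 and 315.3 in FT_1, FT_2 and FT_3 and 537.5, 563.7 and 537.6 in WT_1, WT_2 and WT_3. SDHB made up 29.0%, 29.8% and 29.5% of that sum in the FT libraries and 19.9%, 20.4% and 19.7% in the WT libraries. The share of SDHC was at most 25.7% in FT cells and at least 25.6% in WT cells. SDHB therefore held a larger share in each FT library than in each WT library, while the ranges of SDHC met.

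Ratios between 2 members were compared because the scaling of a library cancels in them. The ratio of SDHB to SDHC was 1.16, 1.16 and 1.16 in FT_1, FT_2 and FT_3 and 0.776, 0.795 and 0.729 in WT_1, WT_2 and WT_3. The FT libraries, FT_1 among them, lay close together, SDHB exceeded SDHC in each of them, and the reverse held in each WT library. The mean log2 ratio was 0.213 ± 0.005 (SD, n = 3) in the FT and -0.384 ± 0.065 in the WT group, a difference of 0.60 (0.59 without FT_1). The ratio of SDHA to SDHB was 0.970, 1.04 and 1.06 in the FT libraries and 1.79, 1.68 and 1.82 in the WT libraries. SDHA was close to SDHB in FT cells and well above it in WT cells, a log2 difference of -0.78 (-0.74 without FT_1). The ratio of SDHB to SDHD was 1.63, 2.21 and 2.20 against 1.05, 1.05 and 1.13, with a log2 difference of 0.89 (1.04 without FT_1). These ratios and that of SDHA to SDHC, with a small log2 difference of -0.19 (-0.15 without FT_1), did not overlap between groups. In each of the 4 the exact two-sided permutation test gave p = 0.1, the smallest that 3 against 3 libraries allow, or 0.15 adjusted over the 6 pairs compared. How often ratios of other gene pairs do not overlap was not tested. Among single genes, 29.4% had each FT library under each WT library. The 2 remaining pairs overlapped between groups through FT_1 alone, and FT_2 and FT_3 lay above the WT libraries in both. SDHA to SDHD differed by 0.11 (exact permutation p = 0.6), or 0.29 without FT_1. SDHC to SDHD differed by 0.29 (exact permutation p = 0.2), or 0.44 without FT_1.

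**Figure D2:**
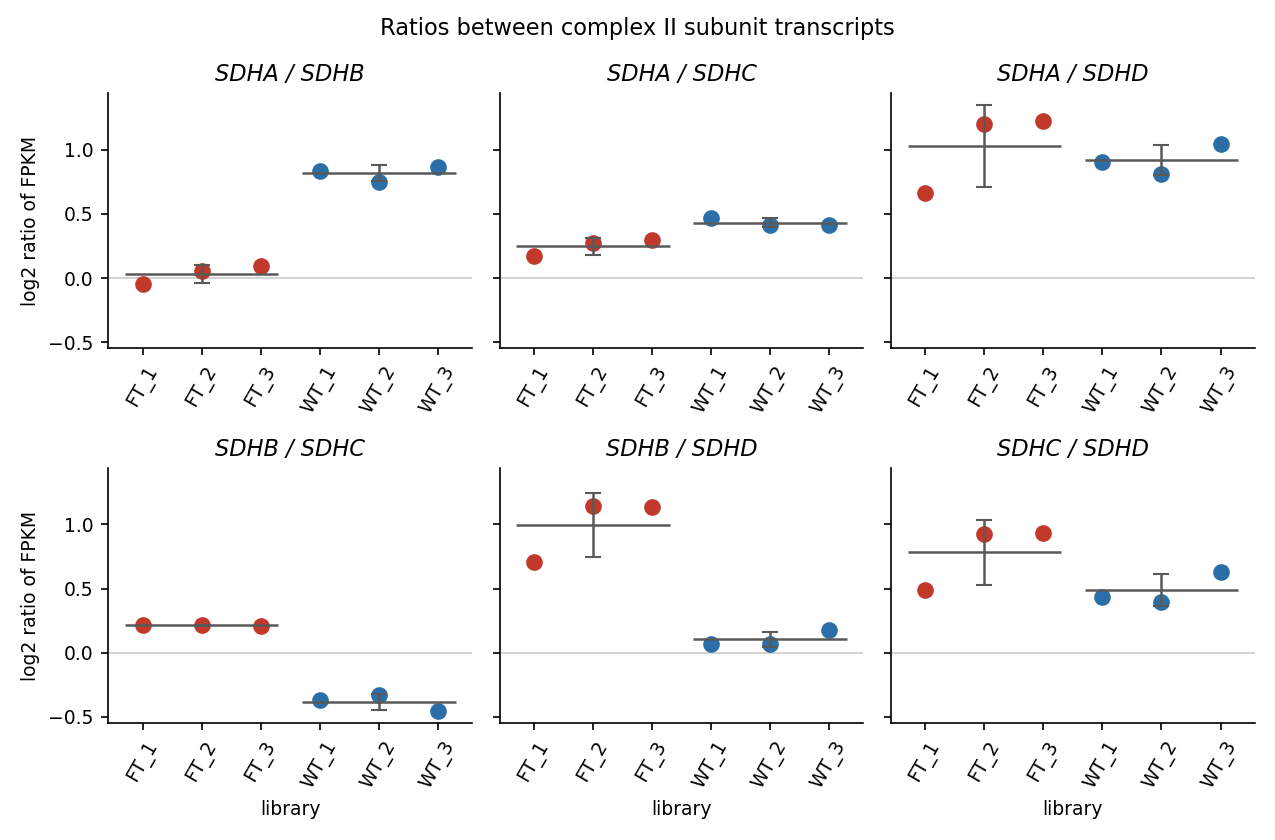
Log2 ratio of the FPKM of 2 subunits (y axis) in each library (x axis; red FT, blue WT) for the 6 pairs, with group means and ± SD (n = 3). The SDHB to SDHC ratio is above 0 in each FT library and below 0 in each WT library, and the ratios of SDHA and SDHC to SDHD overlap between groups through FT_1.

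The choice of scaling between libraries bore on the calls. RPLP0, a ribosomal protein gene that was the reference of the study's RT-qPCR, had 2615, 1576 and 1555 FPKM in FT_1, FT_2 and FT_3 and 2413, 2487 and 2659 FPKM in WT_1, WT_2 and WT_3. It was as high in FT_1 as in the WT libraries and lower in FT_2 and FT_3. As a percentage of RPLP0, SDHA was 2.46, 6.18 and 6.38 in the FT libraries and 7.91, 7.78 and 7.26 in the WT libraries, and SDHB was 2.53, 5.93 and 5.99 against 4.43, 4.63 and 3.98. SDHA, SDHC and SDHD were still lower in each FT library than in each WT library on this scale. SDHB was lowest in FT_1 and higher in FT_2 and FT_3 than in the WT libraries, so that its groups overlapped. When edgeR was run with libraries scaled to RPLP0, 0 of the 4 members were called, and SDHD alone had an unadjusted p under 0.05. That fit called 567 of 13482 genes lower and 2346 higher. DESeq2 and limma called 3 with their own scaling. The RPLP0 scaling moved the median log2 fold change of all genes to 0.34. Relative to that median, SDHA was at -0.95, SDHB at -0.19, SDHC at -0.79 and SDHD at -1.15, against -1.02, -0.25, -0.84 and -1.16 with TMM. Scaling by library totals moved the median to -0.12, and the 4 relative values were then -1.02, -0.25, -0.85 and -1.16. With limma on FPKM the median was -0.12 too, and they were -1.04, -0.26, -0.86 and -1.14.

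**Figure D3:**
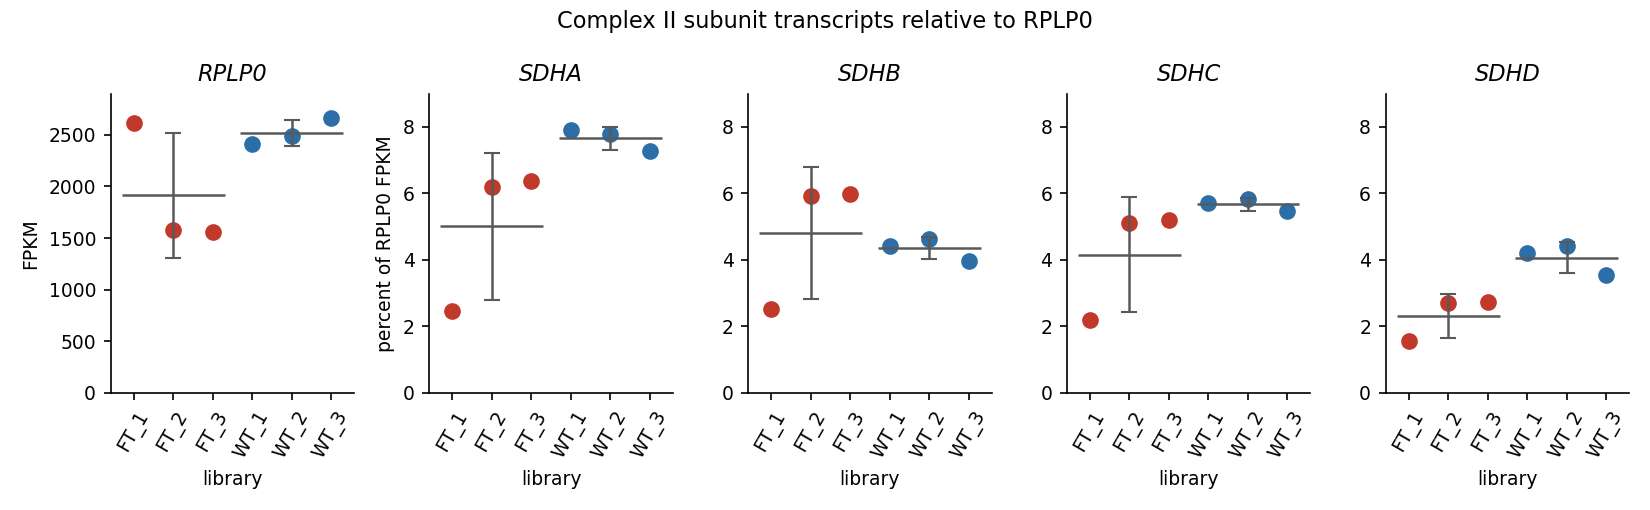
FPKM of RPLP0 (left) and each subunit as a percentage of RPLP0 FPKM (the other panels) in each library (red FT, blue WT; line and bar, group mean ± SD, n = 3). FT_1 has the highest RPLP0 value of the FT libraries and the lowest percentages, and SDHB overlaps between groups.

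**Figure D4:**
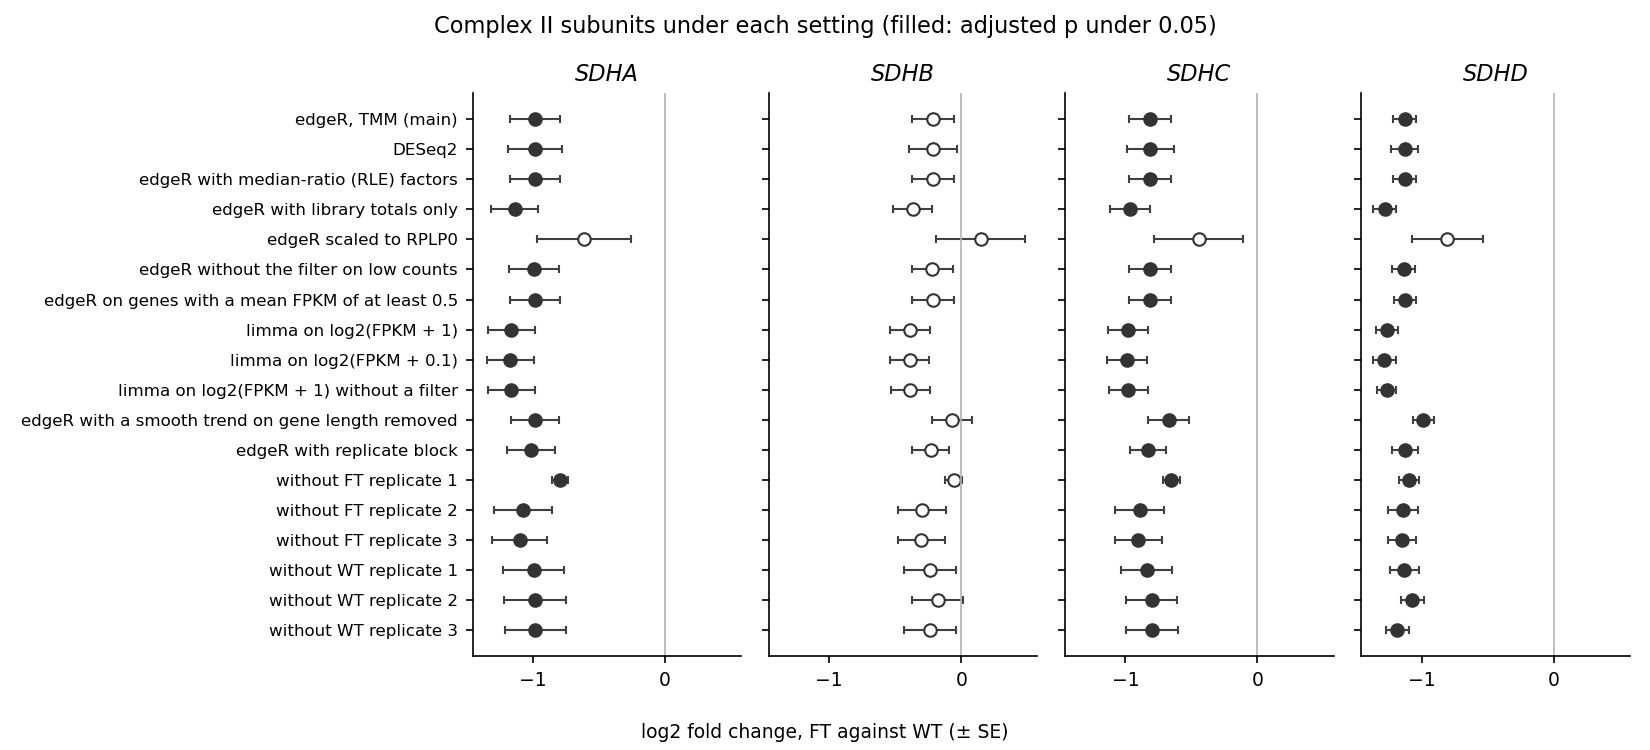
Log2 fold change of each subunit, FT against WT, with its SE (x axis) under each tool, scaling, filter and left-out library (y axis). Filled points have an adjusted p under 0.05. SDHA, SDHC and SDHD are filled in every row but RPLP0 scaling, and SDHB is open throughout and crosses 0 there.

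The 4 genes lie on different chromosomes. In the coordinates of the deposited table, whose bovine build is not given in the sources used here, SDHA spans chromosome 20, 71804557 to 71827899, on the minus strand. SDHB spans chromosome 2, 135548907 to 135578120, on the plus strand. SDHC lies on chromosome 3, 8177617 to 8208058, on the minus strand, and SDHD on chromosome 15, 22397453 to 22409057, on the plus strand. The members therefore share no locus, and the genes next to them differed in their change. TIMM8B, an import factor gene 128 bases from SDHD on the other strand, had 15.6, 15.1 and 13.0 FPKM in the FT libraries and 26.9, 34.6 and 28.6 in the WT libraries. It was lower in each FT library (log2 fold change -0.88, adjusted p = 0.00566), also without FT_1 (-0.92, adjusted p = 2.25e-04). On the far side of SDHD, IL18 was not called with all libraries (-0.35, adjusted p = 0.681) but was lower without FT_1 (-1.37, adjusted p = 3.12e-04). CCDC127, 210 bases from SDHA on the other strand, had 12.8, 16.2 and 15.9 FPKM against 14.7, 15.2 and 14.4, with overlapping groups (0.18, adjusted p = 0.281), and was called higher without FT_1 (0.29, adjusted p = 0.00609). PDCD6 on the other side of SDHA was called lower (-0.43, adjusted p = 0.0167). Next to SDHB, ATP13A2 was called higher (1.61, adjusted p = 5.23e-04) and PADI2 was at 0.4 FPKM or less and not tested with all libraries, and without FT_1 it was called higher (3.89, adjusted p = 0.00295). Next to SDHC, CFAP126 was called higher (0.80, adjusted p = 0.0264). PDCD6, ATP13A2 and CFAP126 were also called without FT_1, in the same directions. With RPLP0 scaling ATP13A2 was still called (1.92, adjusted p = 0.0036). PDCD6 (-0.09, adjusted p = 0.843), TIMM8B (-0.58, adjusted p = 0.132) and CFAP126 (1.15, adjusted p = 0.0598) then lost the call. CFAP126 also lost it with the replicate block (0.79, adjusted p = 0.0847).

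Overlapping genes could share reads with the members, since the use of strand in counting is not given in the sources used here. LRRC14B overlaps SDHA from 71824870 to 71827899 on the same strand and had at most 0.06 FPKM. ENSBTAG00000049455 overlaps SDHD on the opposite strand and had at most 0.65 FPKM. Both were small beside the member they overlap. A further row, ENSBTAG00000027962, carries the GO terms for succinate dehydrogenase activity and complex but no symbol, spans 510 bases of chromosome 2 and had 47.5, 15.4 and 11.2 FPKM in the FT libraries and 20.4, 26.6 and 26.3 in the WT libraries. It was highest in FT_1 and lowest in FT_2 and FT_3, the opposite of the order that SDHA, SDHB and SDHC had within FT cells. It was not called (log2 fold change 0.16, adjusted p = 0.832), and without FT_1 it was lower (-0.70, adjusted p = 0.0044). Whether it is a copy of a member and shares reads with it was not tested, so the values of the members carry that uncertainty.

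Complex II is put together with dedicated assembly factors. Of the 4, edgeR called 0, where 18.9% of all genes tested were called lower and 20.0% higher. At an unadjusted p under 0.05, 1 of the 4 was higher. DESeq2 called 1 higher, limma 1 lower and edgeR with RPLP0 scaling 1 higher. The median log2 fold change of the 4 was -0.17. Whether they differ from the subunits was not tested. SDHAF2, which is needed to attach FAD to SDHA, had 75.8, 53.9 and 55.3 FPKM in FT_1, FT_2 and FT_3 and 49.2, 54.7 and 52.0 in WT_1, WT_2 and WT_3. It was highest in FT_1, and FT_2 and FT_3 were about level with the WT libraries in FPKM. Its log2 fold change was 0.40 (SE 0.140, adjusted p = 0.0651), and 0.24 without FT_1, where it was called higher (adjusted p = 0.0126). SDHAF4, which assists the joining of SDHA with SDHB, had 4.55, 6.29 and 6.45 FPKM against 9.97, 7.93 and 9.24. It was not called by edgeR (-0.48, SE 0.230, adjusted p = 0.144), but limma called it lower (-0.58, adjusted p = 0.0231). SDHAF1 and SDHAF3, which serve the maturation of SDHB, overlapped between groups, with log2 fold changes of -0.06 (SE 0.365, adjusted p = 0.911) and -0.29 (SE 0.260, adjusted p = 0.415).

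The cofactors of the complex come from separate pathways. Their counts stand against 18.9% of all genes called lower and 20.0% higher. For all genes they were 4335 and 4208 of 13765 without FT_1, and 567 and 2346 of 13482 with RPLP0 scaling. Of 15 genes of iron-sulfur cluster assembly, 6 were called lower and 1 higher (8 and 2 without FT_1, 1 and 0 with RPLP0 scaling), with a median of -0.42. The ends of this list were BOLA3 (-1.76) and NFS1 (-0.95), both called lower, and ISCA1 (0.42, called higher) and ISCU (0.43, adjusted p = 0.113). NFS1, the cysteine desulfurase that supplies the sulfur, had 10.9, 12.6 and 11.8 FPKM in the FT libraries and 22.5, 27.3 and 26.3 in the WT libraries. ISCU, the scaffold on which clusters form, had 100.8, 154.3 and 155.2 FPKM against 115.4, 113.2 and 111.4, with FT_1 under the WT libraries and FT_2 and FT_3 above them. Of 8 genes of heme synthesis, 3 were called lower and 1 higher, with or without FT_1 (0 and 1 with RPLP0 scaling, where 1 was lower at an unadjusted p under 0.05). UROD (-0.81) and CPOX (-0.77) were at the low end, and ALAD (0.34, adjusted p = 0.0812) and ALAS1, which encodes the entry enzyme (0.81, called higher), at the high end. For FAD, 4 of 5 genes could be tested, and the riboflavin transporter gene SLC52A2 was called higher (1.01, adjusted p = 0.00512). FLAD1 (-0.18), SLC25A32 (-0.16) and RFK (0.06) were not called. None of the 4 was called lower by edgeR (0 at an unadjusted p under 0.05 and 0 with DESeq2, but 2 with limma on FPKM). Without FT_1 the edgeR counts were the same.

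Genes of enzymes around succinate, with fumarate hydratase (FH) as the next step after complex II, were lower in part. Of 7 tested, 4 were called lower and 0 higher (6 and 1 without FT_1, 0 and 0 with RPLP0 scaling), with a median of -0.93. None was higher at an unadjusted p under 0.05 in edgeR, or called higher by DESeq2 or limma. Over all genes tested, 18.9% were called lower and 20.0% higher. The counts were 4335 and 4208 of 13765 without FT_1, and 567 and 2346 of 13482 with RPLP0 scaling. Succinyl-CoA ligase releases succinate for complex II. SUCLG1, its alpha subunit, had 39.1, 36.2 and 36.2 FPKM in the FT libraries and 88.5, 93.1 and 83.5 in the WT libraries, and FT_1 was no lower than the other FT libraries. Its log2 fold change was -1.09 (SE 0.075, adjusted p = 6.78e-04). The beta subunits SUCLG2 (-0.93) and SUCLA2 (-0.51) and FH (-1.02), which takes the product of complex II onward and does not act on succinate, were also called. OXCT1, which releases succinate in the use of ketone bodies, had 5.68, 33.3 and 40.6 FPKM in the FT libraries and 114.6, 98.9 and 110.1 in the WT libraries. It was far lower in FT_1 than elsewhere. With edgeR it was called only without FT_1 (-1.85, adjusted p = 0.0766 with all libraries, against -1.38, adjusted p = 8.29e-07), and limma called it with all libraries (adjusted p = 0.0344). ALDH5A1, the last enzyme of the route from GABA to succinate, was called lower by edgeR only without FT_1 (-0.73, adjusted p = 0.216, against -0.37, adjusted p = 0.0166). ABAT, an earlier enzyme of that route, was at 0.79 FPKM or less in every library and was called higher by edgeR only without FT_1 (1.54, adjusted p = 0.193, against 2.06, adjusted p = 3.42e-04). The succinate receptor gene SUCNR1 was at 0.04 FPKM or less and was not tested, and SLC25A10 was not analysed here.

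In the rest of the citrate cycle 8 of 13 genes were called lower and 0 higher (8 and 2 without FT_1, 1 and 0 with RPLP0 scaling), with a median of -0.51. SUCLG1, SUCLG2, SUCLA2 and FH are in this list as well as in the one before, and 4 of the 8 lower calls are theirs. The lowest were SUCLG1 and FH, and the highest were citrate synthase, CS (0.06, adjusted p = 0.802), and OGDH (0.23, adjusted p = 0.284). None of the 13 was higher at an unadjusted p under 0.05 in edgeR, or called higher by DESeq2 or limma. Here and for ubiquinone, the share of all genes called lower was 18.9%. Lower calls over all genes were 4335 of 13765 without FT_1, 567 of 13482 with RPLP0 scaling and 1735 of 13482 with the replicate block. Complex II shares its electron acceptor with other enzymes. Of 11 genes of ubiquinone synthesis 7 were called lower and 0 higher (8 and 0 without FT_1, 0 and 0 with RPLP0 scaling, 4 and 0 with the replicate block), and none was higher by unadjusted p, DESeq2 or limma. PDSS1 (-1.15) and COQ3 (-1.05) were the lowest, and COQ8B (0.34, adjusted p = 0.107) and COQ8A (0.97, adjusted p = 0.431) the highest. COQ8A was high in FT_1 alone, and without FT_1 its direction turned and it was called lower (-0.76, adjusted p = 0.0426). Of 5 other dehydrogenases that reduce ubiquinone, ETFDH (-0.84) and SQOR (-0.49) were called lower, and PRODH (-0.29, adjusted p = 0.887) and GPD2 (-0.24, adjusted p = 0.567) were not. Without FT_1, 3 of the 5 were called lower, with RPLP0 scaling 0 and with the replicate block 1.

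Set beside the other respiratory complexes, the 3 of 4 subunits of complex II called lower stood next to 27 of 35 for complex I, 7 of 9 for complex III, 5 of 9 for complex IV and 16 of 17 for the ATP synthase. Among all genes tested 18.9% were called lower, and without FT_1 4335 of 13765. Median log2 fold changes were -0.90 for complex II, -0.65 for complex I, -1.10 for complex III, -0.60 for complex IV and -1.01 for the ATP synthase. Subunits encoded in the mitochondrial genome were not analysed here. Without FT_1 the lower calls were 3 for complex II, 28 for complex I, 7 for complex III, 7 for complex IV and 17 for the ATP synthase, with 1 of complex I called higher. No subunit of complexes I, III, IV or the ATP synthase was called higher by edgeR, DESeq2 or limma with all 6 libraries, and 1, of complex I, was higher at an unadjusted p under 0.05. With libraries scaled to RPLP0 the lower calls were 0 for complex II, 4 for complex I, 2 for complex III, 1 for complex IV and 8 for the ATP synthase, where 567 of all 13482 genes were called lower. At the ends of each list were NDUFB3 (-1.85) and NDUFB1 (-1.73) with NDUFA3 (0.04) and NDUFV3 (0.28) for complex I, and UQCRH (-1.43) and UQCRC2 (-1.28) with CYC1 (-0.24) and UQCRB (-0.03) for complex III. For complex IV they were COX7A2 (-1.51) and COX6B1 (-1.10) with COX8A (-0.18) and COX6A1 (-0.16), and for the ATP synthase ATP5MC3 (-2.07) and ATP5MC1 (-2.05) with ATP5F1D (-0.28) and ATP5MC2 (-0.14). Whether SDHB differs from the uncalled subunits of other complexes was not tested.

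**Figure D5:**
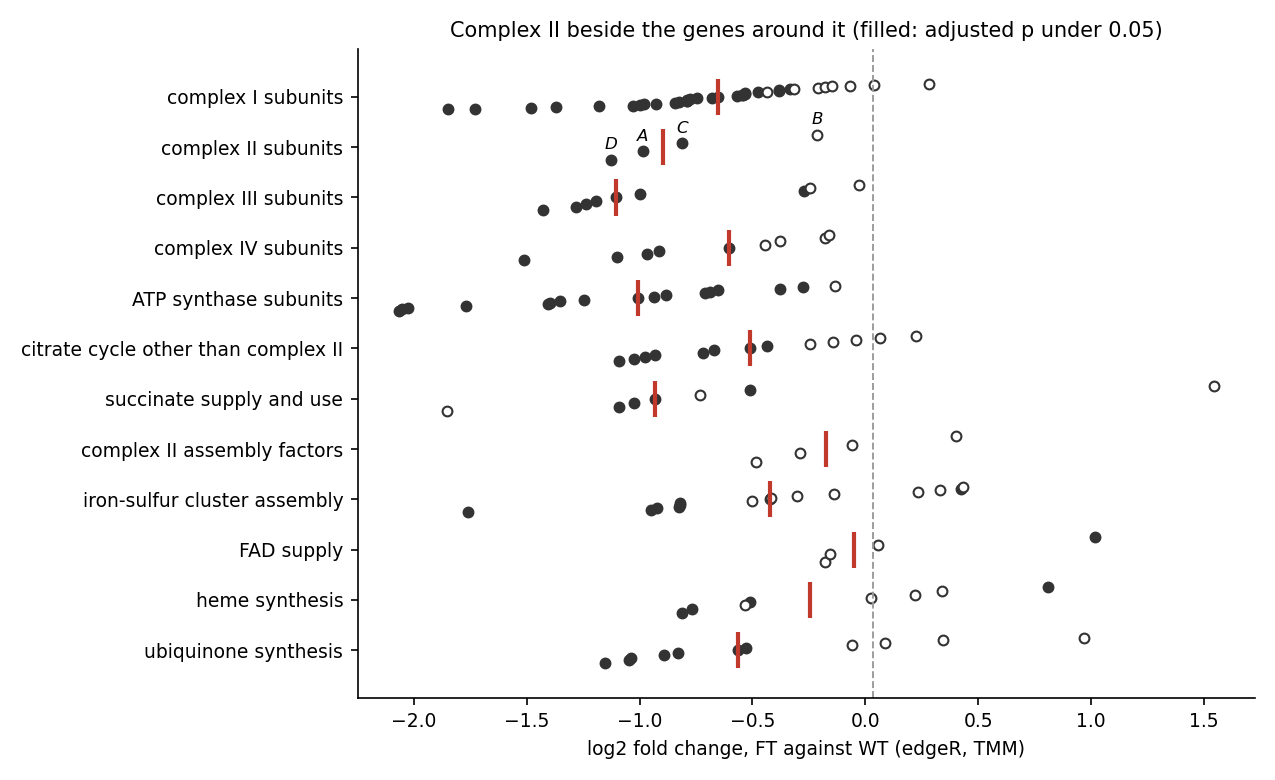
Log2 fold change, FT against WT, from edgeR (x axis) of each tested gene of complex II and of the lists around it (y axis). Filled points have an adjusted p under 0.05, red ticks are list medians, the dashed line is the median of all genes, and letters mark SDHA to SDHD. SDHA, SDHC and SDHD lie among the called subunits of the other complexes. SDHB lies above those called subunits and among the uncalled ones.

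The dip in FT_1 was also looked up in the other lists. The ratio of FT_1 to the mean of FT_2 and FT_3 had a median of 0.708 over the 4 members, against 1.02 for complex I, 0.92 for complex III, 0.983 for complex IV, 0.969 for the ATP synthase and 0.993 for the rest of the citrate cycle. It was 0.812 for the other dehydrogenases that reduce ubiquinone, 0.9 for FAD supply, 0.925 for iron-sulfur cluster assembly and 0.932 for succinate supply and use. For ubiquinone synthesis it was 1.01, for the assembly factors 1.05 and for heme synthesis 1.14. SDHD lacked the dip, and single genes of the other lists had it, such as CS, with 47.5 FPKM in FT_1 against 69.4 and 71.3 in FT_2 and FT_3. No test was run on this difference.

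The pattern of SDHA over the 6 libraries was most like that of SDHC among the members, with a Pearson r of 0.999 on log2 CPM. SDHA and SDHD had 0.935, SDHC and SDHD 0.931, SDHB and SDHC 0.825, SDHA and SDHB 0.821, and SDHB and SDHD 0.602. All r include the difference between groups and are a description of 6 libraries. Among 11943 other genes with a symbol, those most like SDHA were TTC21B, MORN2 and KLHL7, and those most like SDHC were AGMO, the proliferation marker MKI67 and CYB561A3. Those most like SDHD were H2AFV, PNPT1 and ARPC5, and among those most like SDHB were MYBL2 and TULP3. For SDHA the r of these genes was at least 0.9987, and 1743 genes had an r over 0.9, so such likeness was common. MYBL2 had 3.67, 9.25 and 9.29 FPKM in the FT libraries and 11.2, 13.5 and 11.3 in the WT libraries. Like SDHB, it was lowest in FT_1 and only slightly lower in FT_2 and FT_3 than in WT cells.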

How the data were processed

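The deposited values come from the authors' own pipeline, built on StringTie, edgeR, HISAT and in part Perl code, and no reads were processed here. The submitters' processing notes list HISAT2 2.0, StringTie 1.3.0, Bowtie 0.12.2 and the mouse build mm8 without their roles, and the bovine build is not given in the sources used here. The deposited table held raw counts per gene and, in separate columns, FPKM values that the authors had scaled by length and library total. How reads of overlapping genes or copies were assigned is not given in the sources used here.

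The main fit used edgeR 4.0.16 (R 4.3.3) on the counts of all 6 libraries, with TMM factors, filterByExpr, robust quasi-likelihood dispersion, group as the only term, and Benjamini-Hochberg adjustment over 13482 genes. A gene was called at an adjusted p under 0.05. Standard errors were derived from the fold change and its F statistic. DESeq2 1.42.0 and limma 3.58.1 on log2(FPKM + 1) were alternatives, with other scalings, filters, a pseudocount of 0.1, a length trend, a replicate block and each library left out. Ratios of FPKM were compared by exact permutation tests. The edgeR fit was tested on simulated counts in which every library had the same variation. The data differ from that setting, since FT_1 stood apart from FT_2 and FT_3.

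Named genes were all members, assembly factors and succinate genes, the 2 lowest and 2 highest log2 fold changes of each other pathway list, the most abundant gene of each marker list, genes next to the members, and up to 3 of the genes most like each member. Other genes were named after their values were seen. The members and lists were chosen with earlier results of these data known. P-values of the fits weigh the difference between groups against the spread between cultures of a group, for these 6 cultures alone.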

Additional observations from a re-analysis of the deposited data

How the results depend on the processing

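SDHA, SDHC and SDHD were lower in FT cells under all 11 other settings and with each library left out, and lost the call only with libraries scaled to RPLP0. With that scaling 0 of the 4 subunits and 2913 genes were called (5240 with TMM), and the log2 fold changes were -0.61 for SDHA, -0.45 for SDHC and -0.81 for SDHD, while SDHB turned to 0.15. RPLP0 was lower in FT_2 and FT_3 than in FT_1, and whether that is the cause was not tested. Over the settings other than RPLP0 scaling, adjusted p was at most 0.0284 for SDHA, 0.0253 for SDHC and 0.0137 for SDHD, and 0.08 to 0.741 for SDHB. With 1 library left out, log2 fold changes ranged from -1.10 to -0.80 for SDHA, -0.30 to -0.06 for SDHB, -0.90 to -0.65 for SDHC and -1.18 to -1.07 for SDHD, with adjusted p up to 0.0441 for SDHA, 0.0477 for SDHC and 0.01 for SDHD, and the genes called from 3003 (without WT_1) to 8543 (without FT_1). The threshold of the study's methods, which also asks for a log2 fold change beyond 1, left 2556 genes and 1 subunit, since SDHA (-0.98) and SDHC (-0.81) fell short of that size with TMM. SDHA passed it with library totals (-1.14), limma (-1.17), the replicate block, and without FT_2 (-1.07) or FT_3 (-1.10). Of the genes called, 51.4% were higher in FT cells with TMM, 37.5% with library totals, 80.5% with RPLP0 scaling and 34.0% with limma. Removing the length trend brought SDHB to -0.07 and SDHD to -0.99, short of that size. With the replicate block, 3563 genes and the same 3 subunits were called (SDHA -1.01, SDHC -0.83, SDHD -1.12). Same-numbered libraries come from different fetuses, and the correlations of their deviations were -0.036, -0.041 and 0.055, so the numbers do not pair them. List counts under other settings were added after seeing the data. The members had 2779 or more counts in each library, and other depths were not tested.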

Other observations

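Genes of enzymes whose activity succinate inhibits were looked up beside the subunits. Succinate is known to inhibit dioxygenases that use 2-oxoglutarate. Of 10 such genes analysed, 4 were called higher and 1 lower in FT cells with edgeR (4 and 2 without FT_1, 5 and 0 with RPLP0 scaling), with a median log2 fold change of 0.41, and 5 were not called. Among all genes tested, 20.0% were called higher and 18.9% lower. The counts were 4208 and 4335 of 13765 without FT_1, and 2346 and 567 of 13482 with RPLP0 scaling. KDM6B, a histone demethylase, had 6.63, 5.61 and 6.30 FPKM in FT_1, FT_2 and FT_3 and 2.58, 2.39 and 2.71 in WT_1, WT_2 and WT_3. It was higher in each FT library (log2 fold change 1.43, SE 0.099, adjusted p = 6.80e-04), as was TET3 at lower levels (1.42, adjusted p = 0.0136). With limma on FPKM, TET3 was not called (0.42, adjusted p = 0.0754), and 3 of the list were called higher. TET2 was also called higher by edgeR (1.06, adjusted p = 0.00222). The paper reports lower TET2 and TET3 expression in FT cells, from RT-qPCR with RPLP0 as reference and from western blots of the proteins. The edgeR directions on sequencing counts here were the reverse, and protein was not measured in the files used here. KDM4A (-0.49, adjusted p = 0.00647) was called lower and KDM5A (-0.30, adjusted p = 0.435) was not called. These are transcript levels, and succinate itself was not measured in the files used here.

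Of 9 genes often read as a measure of mitochondrial content, 5 were called lower and 0 higher with edgeR, where 1 was higher at an unadjusted p under 0.05, 1 with DESeq2 and 0 with limma. Without FT_1, 5 were called lower and 2 higher, and with RPLP0 scaling 2 lower and 1 higher. Among all genes, edgeR called 18.9% lower and 20.0% higher, and without FT_1 4335 and 4208 of 13765. SLC25A3 (-1.17) and VDAC1 (-1.16) were the lowest, and TFAM (0.28, adjusted p = 0.214) and PHB2 (0.40, adjusted p = 0.064) the highest. The list did not move as a block. CS had 47.5, 69.4 and 71.3 FPKM in the FT libraries and 65.7, 72.1 and 63.8 in the WT libraries, with overlapping groups. Without FT_1 it was called higher (0.24, adjusted p = 0.0113), as was PHB2 (0.25, adjusted p = 0.0143). Of the 5 reference genes, 4 had a negative log2 fold change with TMM, and all 5 did with library totals or limma. YWHAZ (-0.92, adjusted p = 9.56e-04) was called lower, and GAPDH (-0.41), RPLP0 (-0.24), TBP (-0.06) and ACTB (0.13) were not called. Without FT_1, RPLP0 (-0.52, adjusted p = 6.75e-05) and GAPDH (-0.66, adjusted p = 6.54e-06) were called lower too, 3 of the 5 in all.

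Markers of further cell types were low, and their part in the result was not tested. Summed FPKM in FT_1, FT_2, FT_3, WT_1, WT_2 and WT_3 was 1.03, 0.47, 0.49, 1.52, 1.0 and 1.19 for 5 endothelial genes, of which PECAM1 was the most abundant on average, and 2.29, 0.31, 0.43, 0.84, 1.06 and 0.93 for 4 cartilage genes, with SOX9 the most abundant on average. It was 4.06, 4.12, 3.52, 7.93, 6.65 and 7.79 for 4 leukocyte genes, led by CD14, and 5.84, 4.64, 3.78, 1.23, 1.35 and 2.05 for 5 skeletal muscle genes. DES, also a smooth muscle marker, made up most of that sum in the FT libraries, while the WT sums were mostly MYF5. For 2 neural crest and glial genes, nearly all S100B, it was 13.1, 5.82, 4.31, 9.11, 9.48 and 9.95. Of these lists edgeR called 1 of 2 cartilage, 1 of 3 leukocyte and 1 of 3 skeletal muscle genes lower, 1 of 3 skeletal muscle genes (DES) higher and no endothelial or neural gene. In the last 2 lists 0 had an unadjusted p under 0.05, and DESeq2 called 0. With limma no endothelial gene could be tested, and the 1 neural gene tested was not called. Without FT_1, edgeR called 1 endothelial gene (PECAM1, -2.49, adjusted p = 2.80e-04) and 1 neural gene (S100B, -0.74, adjusted p = 0.00101) lower. It then also called 1 cartilage, 2 leukocyte and 2 skeletal muscle genes lower and 1 skeletal muscle gene higher. These counts stand beside 18.9% of all genes called lower and 20.0% higher, and 4335 and 4208 of 13765 without FT_1.

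The primers listed for the study's RT-qPCR are shown because they target 3 of the 4 subunits and the reference gene, and some of them share sequence. Each is written 5′ to 3′, with the shared run in capitals.

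SDHB sense: aactgtgGTCCTATGGTGCTG
SDHD sense: GTCCTATGGTGCTGgatgct
SDHD antisense: CTTTCGGCTCTTGAGGACTG
CYC1 antisense: CTTTCGGCTCTTGAGGACTG
RPLP0 sense: GGCGACCTGGAAGTCCAACT
RPLP0 antisense: GGCGACCTGGAAGTCCAACT

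The SDHB and SDHD sense primers share a run of 14 bases, the SDHD and CYC1 antisense primers are the same 20 bases as listed, and so are both RPLP0 primers. Among all 1128 pairs of the 48 primers listed, these 3 were the ones sharing 14 or more bases, and the longest run in any other pair was 8. The list as printed may differ from the primers used. The paper reports RT-qPCR levels of SDHA, SDHB and SDHD as lower in FT cells, to varying degrees. It reports no significant change in succinate dehydrogenase activity. On the sequencing counts, edgeR called SDHA and SDHD lower and did not call SDHB. Which transcript each primer matches was not tested, and no RT-qPCR value enters the results here.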
